A study of Mus musculus with 24 samples.

Results

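The proteasome genes were followed here in mouse embryonic fibroblasts (MEFs). The members were every gene whose symbol was Psma, Psmb, Psmc, Psmd, Psme, Psmf or Psmg followed by a number, with at most a letter a or b after it, which gave 49 of the 55487 genes in the count table. They were sorted by role into 8 alpha and 11 beta subunits of the core particle, 6 ATPases and 11 non-ATPases of the regulatory particle, 7 assembly chaperones and 6 activators or regulators. The rule itself uses symbols and no measured value, but it was chosen with earlier results of these data known.

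RNA was sequenced from 24 libraries in 6 groups of 4, made up of WT and AMPK KO MEFs, each under vehicle (DMSO), MK-8722 or torin1. MK-8722 is a small molecule that activates the energy sensor kinase AMPK, and torin1 inhibits the catalytic site of the growth kinase MTOR. The AMPK KO cells are the prkaa1 prkaa2 DKO cells of the study, which lack both catalytic subunits of AMPK, and the study compared them with WT MEFs to ask which transcript changes after either drug needed AMPK. The number of independent lines behind each genotype was not given in the sources used here, nor was the dose or time of treatment of these libraries. WT libraries were taken at passages 12 to 15 and KO libraries at passages 16 to 19, with 1 library per passage in each group, so genotype and passage range cannot be told apart. Nothing in the labels says that libraries of a group came from separate animals, and p-values measure the spread between these cultures.

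The proteasome degrades proteins tagged with ubiquitin. Its core particle is a stack of rings, in which alpha subunits form the gate and the beta subunits Psmb5, Psmb6 and Psmb7 cut the substrate. A regulatory particle with an ATPase ring binds ubiquitin chains, removes them and feeds the protein into the core. Interferon leads cells to replace the cutting subunits with Psmb8, Psmb9 and Psmb10, which form the immunoproteasome, and the NRF1 transcription factor (gene Nfe2l1) raises subunit genes together when proteasome activity is short.

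Library totals ran from 26900240 to 34192685 estimated counts, and the 49 members together took 0.506 to 0.716% of them. Prkaa1 and Prkaa2, which encode the AMPK catalytic subunits, were detected in both genotypes. Prkaa1 ranged from 71.3 to 84.5 CPM, the count scaled to the size of the library, in WT libraries and from 65.6 to 82.5 CPM in KO libraries. Prkaa1 was lower in KO than in WT vehicle libraries by 0.19 on the log2 scale (edgeR adjusted p = 0.00101) and Prkaa2 by 0.56 (edgeR adjusted p = 0.0146). A deleted exon can leave the rest of a transcript in place, and totals per gene therefore say nothing about whether the genotype was as labelled. The summed level of 8 fibroblast markers was 11090 to 17100 CPM in WT and 4768 to 6833 CPM in KO libraries, while 6 macrophage markers summed to at most 0.623, 5 endothelial markers to at most 8.64 and 5 epithelial markers to at most 6.87 CPM in any library. Of the 49 members, 47 passed the filter on low counts. Psma8, the testis form of Psma7, had no count in any library, and Psmb11, the thymus counterpart of Psmb5, had at most 4.

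To show the regulatory DNA of members that behaved differently, promoter sequence was taken from RefSeq on GRCm38.p6, which held 41 of the 49 members. The 250 bases before the start are printed for the gene with the strongest fall under torin1, for a cutting subunit that also fell, and for a regulatory subunit that did not move. None of these windows overlaps an annotated exon. Capitals mark matches, on either strand, to the antioxidant response element core TGACNNNGC, the CCAAT box, the interferon stimulated response element core and the CACGTG box.
Psme3, chr11:101315963-101316212, plus strand: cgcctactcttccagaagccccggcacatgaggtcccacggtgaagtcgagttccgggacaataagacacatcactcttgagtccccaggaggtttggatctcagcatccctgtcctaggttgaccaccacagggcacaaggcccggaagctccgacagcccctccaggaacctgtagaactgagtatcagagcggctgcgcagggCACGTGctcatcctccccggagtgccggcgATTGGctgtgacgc
Psmb6, chr11:70525107-70525356, plus strand: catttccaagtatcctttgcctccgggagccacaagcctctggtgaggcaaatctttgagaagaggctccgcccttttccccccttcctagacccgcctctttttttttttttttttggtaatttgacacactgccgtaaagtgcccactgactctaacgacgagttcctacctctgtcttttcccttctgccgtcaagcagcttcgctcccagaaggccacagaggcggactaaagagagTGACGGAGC
Psmd4, chr3:95042615-95042864, minus strand: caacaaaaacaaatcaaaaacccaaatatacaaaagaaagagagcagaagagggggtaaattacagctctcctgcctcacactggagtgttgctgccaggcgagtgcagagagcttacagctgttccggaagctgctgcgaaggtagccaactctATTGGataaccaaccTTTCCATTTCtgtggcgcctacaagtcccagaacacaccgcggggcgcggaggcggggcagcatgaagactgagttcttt
Psme3 held a CACGTG box and a CCAAT box, Psmb6 held an antioxidant response element core directly before its start, and Psmd4 held a CCAAT box and an interferon element core. No match overlapped another motif in any member. Among the 22 members with promoter sequence that fell with torin1 in both genotypes, 3 (13.6%) held the antioxidant core, 7 (31.8%) the CCAAT box and 2 (9.09%) the CACGTG box. Over all 27025 genes with promoter sequence the shares were 11.5%, 37.5% and 6.86%. The interferon element core was in 1 of these members (4.55%) and in 3.46% of all genes. A match is a run of letters and does not show binding.

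Torin1 lowered most of the proteasome genes in both genotypes. In WT MEFs, 29 of the 47 tested members were lower with torin1 and 1 was higher, while 21.1% of all tested genes were lower and 26.6% higher. In AMPK KO MEFs, 32 members were lower and none higher, where 17.6% of all genes were lower and 25.9% higher. In either direction 47.6% of all genes were called in WT and 43.5% in KO. A gene was called at an edgeR adjusted p under 0.05 and a change of at least 1.2-fold. Of the called members, 28 of 30 in WT and 31 of 32 in KO had torin1 libraries that did not overlap the vehicle libraries, as had 88.1% and 91.4% of all called genes. In KO, 3 members had a positive fitted change, 42 of the 47 had an unadjusted p under 0.05 in either direction, and DESeq2 also called 0 higher. The share of all genes under that unadjusted p was not counted. The median log2 fold change of the members was -0.36 in WT and -0.42 in KO, against medians of 0.04 and 0.05 over all genes. In bulk RNA, fewer cells of a type and less RNA per cell cannot be told apart.

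The fall covered most of the body of the complex. Of the 31 constitutive subunits of core and regulatory particle, 25 were lower in WT with a median of -0.50, and 24 were lower in KO with a median of -0.43. Their summed level was 6083 ± 161 CPM (SD, n = 4) in WT vehicle libraries and 4490 ± 58.6 CPM with torin1. In KO it went from 5964 ± 158 to 4617 ± 137 CPM. The lowest vehicle library in either genotype, at 5775 CPM, stood above the highest torin1 library, at 4781 CPM.

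**Figure D1:**
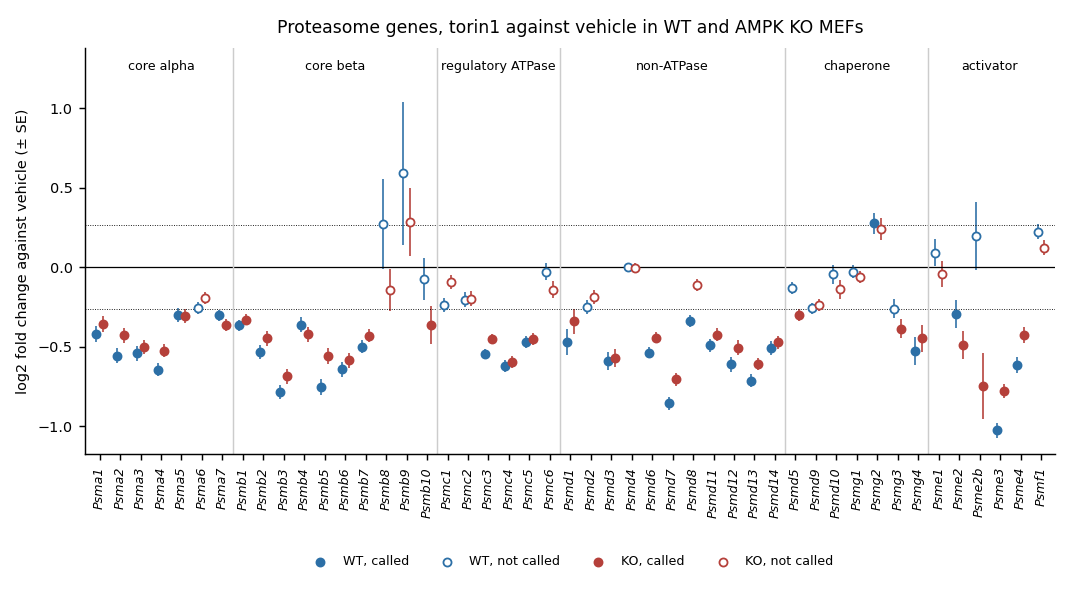
Log2 fold change of 47 proteasome genes with torin1 against vehicle (y axis, fitted value with SE) by gene and role (x axis), in WT (blue) and AMPK KO (red) MEFs; filled points are called and dotted lines mark a 1.2-fold change. Most core and regulatory particle genes lie below the lower line in both genotypes, with Psme3 lowest at -1.03 in WT, while Psmd4 lies at 0.

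The lists of lower members in WT and KO had 28 genes in common, which was 96.6% of the WT list and 87.5% of the KO list. These comparisons share no library. Over all genes, 2223 were lower in both, 66.6% of the WT list and 79.9% of the KO list. Psmd8 was called in WT alone, and Psmb10, Psmd5, Psme2b and Psmg3 in KO alone. Of these, only Psme2b differed between genotypes in the fit without passage, by the test of the difference with the fold rule. With passage as a block in the fit, Psmb10 also differed, by -0.29 ± 0.08 (edgeR adjusted p = 0.0121).

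Among the cutting subunits, Psmb5, which cleaves after bulky residues, was at 112, 116, 120 and 121 CPM in WT vehicle libraries and at 68.7, 68.1, 65.4 and 75.5 CPM with torin1. The groups did not overlap, and the fitted change was -0.75 ± 0.05 (log2, SE; edgeR adjusted p = 5.13e-12). In KO the vehicle libraries lay between 84.9 and 93.0 CPM and the torin1 libraries between 54.3 and 63.4 CPM, a change of -0.56 ± 0.05 (edgeR adjusted p = 1.23e-09). Psmb6, the subunit that cuts after acidic residues, changed by -0.64 in WT and -0.58 in KO. Psmb7, which cuts after basic residues, changed by -0.50 in WT and -0.43 in KO. All 3 constitutive cutting subunits were thus called lower in each genotype.

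In the rings of the core, 6 of the 7 tested alpha subunits and 7 of the 10 tested beta subunits were lower in WT, and 6 and 8 in KO. Psmb3, a structural beta subunit, went from 136, 142, 139 and 137 CPM in WT vehicle libraries to 78.9, 84.8, 77.1 and 80.9 CPM with torin1. Its change was -0.79 in WT and -0.69 in KO. Psma4, an alpha ring subunit, changed by -0.65 in WT and -0.53 in KO. Psma6 was the alpha subunit not called in either genotype. Its values were -0.26 ± 0.04 in WT and -0.20 ± 0.04 in KO (log2, SE), past the adjusted p and short of the fold limit.

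In the regulatory particle, 3 of 6 ATPases were lower in each genotype (Psmc3, Psmc4 and Psmc5), with 9 of 11 non-ATPases lower in WT and 8 in KO. Psmd7, the scaffold partner of the deubiquitinase Psmd14, had the strongest fall of the constitutive subunits. Its WT libraries held 240.8, 244.9, 264 and 239.5 CPM with vehicle and 129, 135, 139 and 143 CPM with torin1, a change of -0.86 ± 0.04 (edgeR adjusted p = 4.72e-14). In KO it changed by -0.70 ± 0.04. Psmd13, a structural subunit of the lid, changed by -0.71 in WT and -0.61 in KO, and Psmc4, an ATPase of the ring, by -0.62 and -0.60.

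Psmd4, a ubiquitin receptor of the regulatory particle, stayed level while most of the regulatory particle fell. It was at 202, 204, 210 and 205 CPM in WT vehicle libraries and at 207.8, 196.5, 212.1 and 203.8 CPM with torin1, and these groups overlapped. The fitted change was 0.00 ± 0.03 in WT and -0.01 ± 0.03 in KO (log2, SE). Psmc6, an ATPase, was at -0.03 ± 0.05 in WT and -0.14 ± 0.05 in KO. Psmc1, Psmc2 and Psmd2 were not called in either genotype, with values from -0.25 to -0.20 in WT and from -0.20 to -0.10 in KO. In WT all of these were past the adjusted p and short of the fold limit, as were Psmc2, Psmc6 and Psmd2 in KO.

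**Figure D2:**
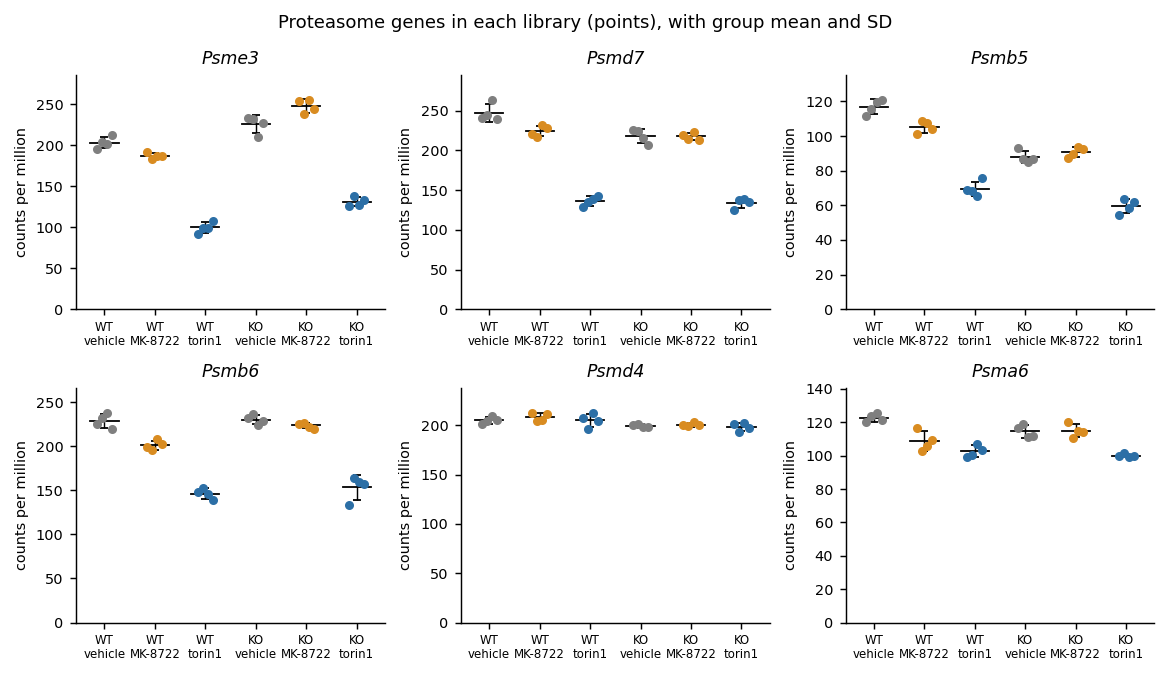
CPM (y axis, from 0) of 6 proteasome genes in each library of the 6 groups (x axis); points are libraries, horizontal lines are group means and bars are SD (n = 4). Psme3, Psmd7, Psmb5 and Psmb6 are lower in every torin1 library than in any vehicle library of the same genotype, and Psmd4 stays between 193.6 and 212.4 CPM throughout.

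The activators did not move as a group. Psme3, the nuclear activator PA28 gamma, which opens the core without ubiquitin, fell furthest of all members. It was at 196, 204, 202 and 212 CPM in WT vehicle libraries and at 91.9, 99.4, 99.6 and 108 CPM with torin1, a change of -1.03 ± 0.05 (edgeR adjusted p = 1.71e-14). In KO it changed by -0.78 ± 0.05, and the difference between genotypes was 0.25 ± 0.06 (edgeR adjusted p = 0.0161), under the fold limit. Psme4, the nuclear activator PA200, changed by -0.62 in WT and -0.43 in KO.

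Psme1 and Psme2 encode PA28 alpha and beta, which form the interferon-inducible cap together. Psme1 stayed at 0.09 ± 0.08 in WT and -0.04 ± 0.08 in KO, while Psme2 was lower by 0.30 ± 0.09 in WT (edgeR adjusted p = 0.0067) and by 0.49 ± 0.09 in KO (edgeR adjusted p = 4.17e-05). The Psme2 call in WT was lost without torin1 replicate 3 or replicate 4, at a smallest change of -0.23, and on protein-coding transcripts alone, at -0.26. With passage as a block in the fit, Psme2 changed by -0.30 ± 0.04 in WT (edgeR adjusted p = 5.93e-07) and -0.49 ± 0.03 in KO (edgeR adjusted p = 2.3e-10). It was below vehicle at each of the 4 passages of either genotype. Psme2b is a copy of Psme2, and reads that match both could be split between them, so its values are uncertain. It was called lower in KO at -0.75 ± 0.21 and stood at 0.20 ± 0.21 in WT, with 0.768 to 1.85 CPM in all vehicle and torin1 libraries. Psmf1, which encodes the regulator PI31, was at 0.22 ± 0.05 in WT and 0.12 ± 0.05 in KO, on the positive side and under the fold limit in both.

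The chaperones that build the complex also split. Psmg2, a chaperone that starts the alpha ring, was the member called higher with torin1 in WT, at 0.28 ± 0.07 (edgeR adjusted p = 0.00101). Its vehicle libraries held 23.87, 24.36, 22.88 and 28.95 CPM and its torin1 libraries 30.93, 28.65, 28.89 and 32.78 CPM, so the groups overlapped, and the call was lost without any of vehicle replicates 1, 2 and 3 or torin1 replicate 4. Psmg1, its partner, was at -0.03 in WT and -0.06 in KO.

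Psmg4, a further core chaperone, was lower in both genotypes, at -0.53 ± 0.09 and -0.45 ± 0.08. Psmg3, which pairs with Psmg4, was at -0.26 in WT and was called lower in KO at -0.39. Of the chaperones of the ATPase ring, Psmd5 was at -0.13 in WT and called lower in KO at -0.30, with an adjusted p of 0.0446 for the difference between genotypes in edgeR and a size under the fold limit. Psmd9 and Psmd10 were not called, with values of -0.26 and -0.05 in WT and -0.24 and -0.14 in KO.

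Scaling touched these counts in part. With library size alone in place of TMM scaling, the median of all genes under torin1 was 0.14 in WT and 0.12 in KO, 24 members were lower and 2 higher in WT, and 30 were lower and 1 higher in KO. The share of called genes that were higher over the whole table went from 55.8 to 67.5% in WT and from 59.5 to 68% in KO. The calls of Psmb4, Psma7, Psmd8, Psma5 and Psme2 in WT and of Psmd5 and Psma5 in KO were lost.

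Genes around the complex were counted in lists by function. Over all tested genes, torin1 lowered 21.1% and raised 26.6% in WT, and lowered 17.6% and raised 25.9% in KO. Of 12 other proteasome-bound proteins, 6 were lower and 1 higher with torin1 in WT, and 5 and 1 in KO. Sem1, a small lid subunit, changed by -0.66 in WT and -0.57 in KO. Adrm1, a ubiquitin receptor, changed by -0.58 and -0.44, and Pomp, the maturation factor of the core, by -0.56 and -0.45.

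Of 12 genes of the NRF1 and NRF2 axis, 7 (58.3%) were lower and 1 (8.33%) higher in WT, and 4 (33.3%) were lower and 4 (33.3%) higher in KO. By the test of the difference, 5 of the 12 (41.7%) had a higher torin1 response in KO than in WT and 0 a lower one. Over all genes 4.15% were higher and 2.92% lower by that test. Nfe2l1 itself changed by -0.64 ± 0.05 in WT and -0.73 ± 0.05 in KO. Vcp, the ATPase that draws NRF1 from the endoplasmic reticulum, changed by -0.69 and -0.47. Ngly1, the enzyme that removes sugar chains from NRF1, rose by 0.81 ± 0.09 and 0.89 ± 0.10 in WT and KO. Of 15 ubiquitin and shuttle genes, 3 (20%) were higher and 3 (20%) lower in WT, and 2 (13.3%) and 2 (13.3%) in KO. Each of these shares was below that of all genes. Rad23b, a shuttle that carries ubiquitinated proteins, changed by -0.49 and -0.41.

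MK-8722 gave few calls among the proteasome genes. In WT, 1 of the 47 tested members was higher and 1 lower, where 10% of all genes were higher and 5.66% lower. Psmg2 was the higher member, at 0.26 ± 0.07 (edgeR adjusted p = 0.00444), and Psmg4 the lower, at -0.37 ± 0.09 (edgeR adjusted p = 0.00205). Both are core chaperones, and in both the vehicle and MK-8722 libraries overlapped. Psmg4 was at 8.81, 10.35, 10.59 and 10.67 CPM with vehicle and at 7.124, 9.065, 7.894 and 7.117 CPM with MK-8722. The Psmg2 call lay at the fold limit and was lost in 15 of 24 fits that each left out a library, at sizes from 0.21 upward. Those libraries were KO MK-8722 replicates 1 to 4, KO vehicle 3 and 4, KO torin1 2 and 4, WT vehicle 1, 2 and 3, WT MK-8722 2 and WT torin1 1, 3 and 4. DESeq2 did not call it.

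Small negative values were widespread with MK-8722 in WT. The fitted change was below 0 in 40 of the 47 members and in 28 of the 31 constitutive subunits, which ranged from -0.24 to 0.07 with a median of -0.11. The median over all genes was -0.002. The summed level of the constitutive subunits was 5903, 5357, 5736 and 5784 CPM with MK-8722 in WT, lowest in replicate 2. With vehicle it was 6049, 6044, 6310 and 5929 CPM, so the size of the shift was uneven between libraries. On the adjusted p alone, 21 members were lower and 1 higher in WT, where 13.1% of all genes were lower and 15% higher. Psmc5, an ATPase, was at -0.24 ± 0.04, Psmc4 at -0.22 ± 0.04, Psmd6, a lid subunit, at -0.20 ± 0.03, Psmd13 at -0.20 ± 0.04 and Psmb6 at -0.18 ± 0.05 (log2, SE), all under the fold limit. Psmb5 and Psmb7 were at -0.15 and -0.06.

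In KO no member was called with MK-8722 by edgeR, 3 of 47 had an unadjusted p under 0.05 against 25 in WT, and DESeq2 also called none. All genes were not counted at that unadjusted p, so these counts have no share beside them. Over all genes 0.866% were higher and 0.695% lower, 1.56% in all. With library size alone the share of called genes that were higher went from 55.5 to 45.1% in KO. The constitutive subunits lay between -0.09 and 0.11 with a median of -0.01, and the cutting subunits Psmb5, Psmb6 and Psmb7 at 0.05, -0.04 and 0.01. Psme1, Psme2, Psme3, Psme4 and Psmf1 were at -0.08, -0.07, 0.14, 0.04 and 0.01 in KO and at -0.04, -0.24, -0.12, 0.04 and -0.18 in WT. The chaperones Psmg1, Psmg3, Psmd5, Psmd9 and Psmd10 were at 0.05, 0.03, -0.04, -0.07 and -0.02 in KO and at -0.12, -0.05, -0.13, -0.11 and 0.05 in WT.

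**Figure D3:**
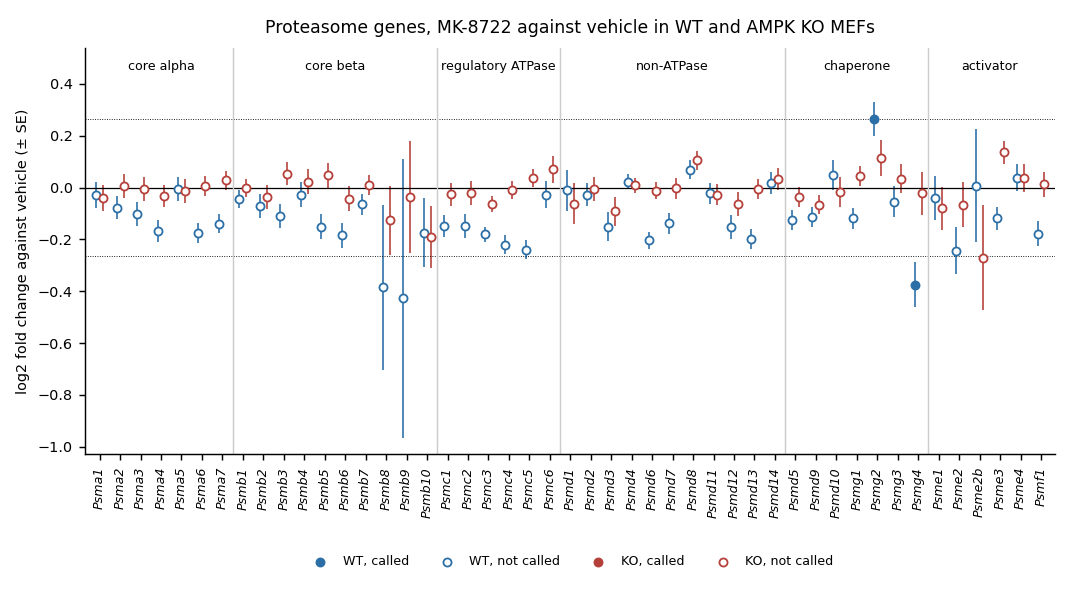
Log2 fold change of 47 proteasome genes with MK-8722 against vehicle (y axis, fitted value with SE) by gene and role (x axis), in WT (blue) and AMPK KO (red) MEFs; filled points are called and dotted lines mark a 1.2-fold change. Psmg2 and Psmg4 in WT are the filled points, and 40 of 47 WT values and 29 of 47 KO values lie below 0.

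The response to MK-8722 differed between genotypes in 2 of the 47 members, both higher in KO than in WT, where 5.12% of all genes had a higher and 7.66% a lower value. Psmc5 differed by 0.28 ± 0.05 (edgeR adjusted p = 0.000508). It went from 183 to 193 CPM with vehicle to 154 to 163 CPM with MK-8722 in WT, and from 174 to 183 to 179 to 192 CPM in KO. Psmg4 differed by 0.35 ± 0.12 (edgeR adjusted p = 0.0453). Psmc5 lost its call without KO vehicle replicate 3, WT MK-8722 replicate 3 or KO MK-8722 replicate 4. Psmg4 lost this call in 13 of 24 fits that left out a library, and neither gene was called with library size alone.

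In the fit without passage, Psme2b was the member whose torin1 response differed between genotypes. The difference was -0.94 ± 0.30 (edgeR adjusted p = 0.0449), where 4.15% of all genes had a higher and 2.92% a lower value, 7.07% in all. The call was lost in 12 of 24 fits that left out a library. Over all genes, the share of differences called higher was 58.7% with TMM and 42.1% with library size alone. Of the constitutive subunits, none was called, and 26 of the 31 had a value above 0, with a median of 0.07. An unadjusted p under 0.05 was found in 5 of them, a share not counted over all genes. DESeq2 called 0 members higher. Psmd8, a lid subunit, was at 0.23 ± 0.05 (edgeR adjusted p = 0.00748), under the fold limit.

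In vehicle, the AMPK KO and WT MEFs had their largest differences among the members in the immunoproteasome. Of the 47 members, 11 were higher and 9 lower in KO, where 30.9% of all genes were higher and 26% lower. The share called in either direction was 42.6% of members and 56.9% of all genes. Psmb8, which replaces Psmb5, was at 1.69, 0.914, 1.26 and 1.41 CPM in WT and at 54.3, 40.6, 53.8 and 66.6 CPM in KO. The groups were far apart, and the change was 5.34 ± 0.19 (log2, SE; edgeR adjusted p = 3.18e-17). Psmb9, which replaces Psmb6, was at 0.288 to 0.439 CPM in WT and 5.73 to 11.6 CPM in KO, a change of 4.63 ± 0.32. Psmb9 was read by as few as 3 counts in a library, so its WT level is imprecise. Psmb10, which replaces Psmb7, was at 13.6 to 16.4 CPM in WT and 31.8 to 44.5 CPM in KO, a change of 1.32 ± 0.13.

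Per transcript length, in TPM, the deposited length-scaled level, the immunoproteasome forms were a minor part of each subunit pair. Psmb8 made up 0.908 ± 0.241% of Psmb8 plus Psmb5 in WT vehicle libraries and 32.2 ± 4.58% in KO (SD, n = 4). Psmb9 made up 0.109 ± 0.0177% of Psmb9 plus Psmb6 in WT and 2.38 ± 0.824% in KO. Psmb10 made up 12.8 ± 0.961% of Psmb10 plus Psmb7 in WT and 23.7 ± 3.08% in KO. No KO library overlapped a WT library in any of these shares, which is a description with no test. These shares count every transcript of a gene. Transcripts not annotated as protein coding held 80.4% of the Psmb10 level in WT vehicle libraries and 59.1% in KO, against 0.696% and 0.687% for Psmb7. On protein-coding transcripts alone the Psmb10 share was 2.81 ± 0.385% in WT and 11.4 ± 1.84% in KO. The Psmb8 share was then 0.743 ± 0.196% in WT and 26.3 ± 4.03% in KO, and the Psmb9 share 0.0413 ± 0.0258% and 1.62 ± 0.653%.

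**Figure D4:**
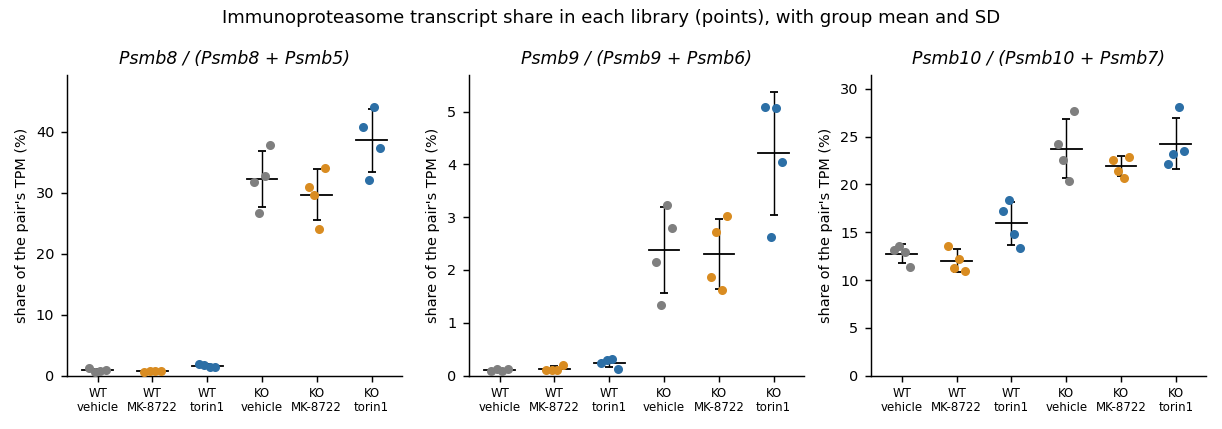
Share of the immunoproteasome form in the TPM of each catalytic pair, summed over all transcripts (y axis, %, from 0) in each library of the 6 groups (x axis); points are libraries, horizontal lines are group means and bars are SD (n = 4). Every KO library lies above every WT library in each panel, and the Psmb8 share reaches 32.1 to 44.1% in KO with torin1.

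With torin1 the Psmb8 share was 38.6 ± 5.14% in KO and 1.64 ± 0.197% in WT, while Psmb5 fell in both genotypes and Psmb8 was at -0.15 ± 0.13 in KO and 0.27 ± 0.28 in WT (log2, SE). Psmb9 was at 0.28 ± 0.21 in KO and 0.59 ± 0.45 in WT with torin1. Psmb10 was called lower in KO at -0.36 ± 0.12 (edgeR adjusted p = 0.0124) and was at -0.07 ± 0.13 in WT. The Psmb10 call was lost without KO torin1 replicate 1 (edgeR adjusted p = 0.0531) and on protein-coding transcripts alone, at -0.30 (edgeR adjusted p = 0.112). With MK-8722 the values of Psmb8, Psmb9 and Psmb10 were -0.38, -0.43 and -0.17 in WT and -0.13, -0.04 and -0.19 in KO.

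Among KO libraries the order of Psmb8 by passage was alike under each treatment. Psmb8 was highest at passage 18 under each treatment, at 66.6 CPM with vehicle, 60.4 CPM with MK-8722 and 58.8 CPM with torin1. It was lowest at passage 17, at 40.6, 38.8 and 38.2 CPM. Psmb10, Psme1 and Psme2 were also highest at passage 18 in all 3 treatments. Psmb9 was highest at passage 16 with vehicle and MK-8722, at 11.6 and 11.4 CPM, and at passage 18 with torin1, at 14.2 CPM. With passage as a block, the SE of the torin1 change of Psmb8 in KO went from 0.13 to 0.05 with a value of -0.14 (edgeR adjusted p = 0.0111), and Psmb9 was called higher at 0.30 ± 0.10 (edgeR adjusted p = 0.0123). Psmb10 was called lower in KO with this block, at -0.37 ± 0.05 (edgeR adjusted p = 2.01e-06). Its KO torin1 library was below the vehicle library at each of the 4 passages. In that fit Psmb8 and Psmb10 differed between genotypes in their torin1 response, by -0.42 ± 0.14 (edgeR adjusted p = 0.0442) and -0.29 ± 0.08 (edgeR adjusted p = 0.0121).

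The interferon-inducible activators moved in the same direction between genotypes. Psme1 was at 52.0 to 56.8 CPM in WT and 70.7 to 89.6 CPM in KO, a change of 0.51 ± 0.08, and Psme2 at 36.3 to 45.0 and 68.3 to 80.8 CPM, a change of 0.81 ± 0.09. Psme2b was called higher at 0.55 ± 0.21 and lost the call without any of WT replicates 1, 2 and 3 or KO replicate 2. Of 12 MHC class I and interferon genes, 10 (83.3%) were higher in KO and 2 (16.7%) lower, where 30.9% of all genes were higher and 26% lower. Nlrc5, the transactivator of MHC class I genes, differed by 6.02 ± 0.28, the peptide transporter genes Tap2 and Tap1 by 4.03 and 2.67, and H2-K1, a class I heavy chain, by 2.61. Of the 8 fibroblast markers, 7 were lower and 1 higher in KO, with Col1a2, a collagen chain, at -6.46 ± 0.37. The part of this marker difference in the immunoproteasome result was not tested. Macrophage markers were near 0 in every group.

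The constitutive subunits differed less and in both directions. Of the 31, 2 were higher and 7 lower in KO, with a median of -0.10. Psmd8 was at 205 to 209 CPM in WT and 396 to 411 CPM in KO, a change of 0.97 ± 0.04 (edgeR adjusted p = 9.21e-17). Psmc4 was at 142 to 151 CPM in WT and 256 to 273 CPM in KO, a change of 0.86 ± 0.04 (edgeR adjusted p = 4.57e-16). The largest falls were in Psmd6, at -0.63 ± 0.03, Psma4, at -0.49 ± 0.04, and Psmb5, at -0.41 ± 0.05. Psma7, an alpha ring subunit, was at -0.36 ± 0.04 and Psmb6 and Psmb7 at 0.01 and -0.10. Among activators, Psme4 was lower by 0.36 ± 0.05, and Psme3 and Psmf1 were at 0.15 and -0.04.

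Chaperones were called in both directions as well. Psmg1, Psmg3 and Psmd10 were higher in KO by 0.40, 0.33 and 0.28, and Psmg2 was lower by 0.45 ± 0.07. Psmg4, Psmd5 and Psmd9 were not called, at 0.25, -0.14 and 0.24. The Psmd10 call was lost in 6 of 24 fits that left out a library, at sizes from 0.20 upward.

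Several of these genotype differences were shared with the genes next to them. Psmc4 (chromosome 7, 28041707 to 28050101, GRCm38) and Psmd8 (chromosome 7, 29174188 to 29180701) lie near each other on the minus strand. Of the 67 tested genes within 1000000 bases of Psmc4, 52 (77.6%) were higher in KO and 2 lower, with a median log2 fold change of 0.79. Around Psmd8, 50 of 64 (78.1%) were higher and 1 lower, with a median of 0.72. These windows share genes. Over all tested genes 30.9% were higher.

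The same was seen for some of the members that were lower, where 26% of all tested genes were lower. Around Psmd6, 4 of 5 tested genes were lower. Around Psmg2, 14 of 16 were lower, and around Psma4, 13 of 19 were lower and 2 higher. The medians of these windows were -0.92, -0.44 and -0.47. Psma7, Psmd1 and Psme4, which were also lower in KO, had positive window medians, of 0.213, 0.133 and 0.032. Psmb8 and Psmb9, which are neighbours on chromosome 17, lay among 85 tested genes, of which 39 (45.9%) were higher and 7 (8.24%) lower, with a median of 0.19. Around Psmb10, 11 of 59 were higher and 16 lower, with a median of 0.01. Around Psme1 and Psme2, 13 of 48 were higher and 12 lower, with a median of -0.16. Of the 11 members higher in KO, 8 had neighbours with a positive median, and of the 9 lower, 6 had neighbours with a negative median. The 8 include Psmb10, at a median of 0.01, and Psmb8 and Psmb9, which share the same window. Most tested members, called or not, had neighbours with a positive median, so the first count does not set the higher members apart. The part of a shared neighbourhood in these differences was not tested.

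**Figure D5:**
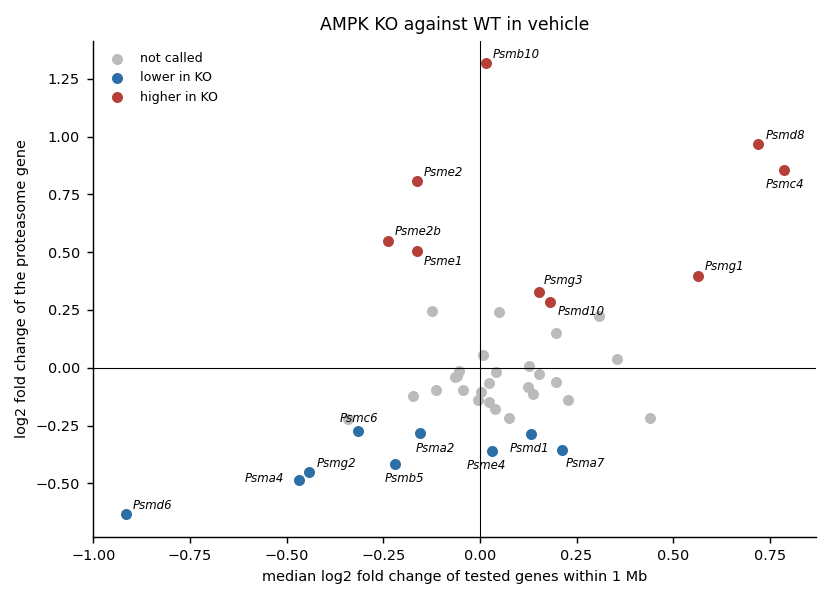
Log2 fold change of each proteasome gene in AMPK KO against WT with vehicle (y axis) and the median log2 fold change of tested genes within 1 Mb of it (x axis), for 45 tested members; Psmb8 and Psmb9, at 5.34 and 4.63, are left out for scale. Psmc4 and Psmd8 lie at the upper right and Psmd6, Psma4 and Psmg2 at the lower left. Psme1, Psme2 and Psme2b are higher with a negative neighbourhood median, and Psmb10 is higher with a median of 0.015.

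The genotype counts depended on scaling. With library size alone the median of all genes was 0.16, the share of called genes that were higher went from 54.3 to 67.4%, and 15 members were higher and 4 lower in KO. The calls of Psma2, Psmc6, Psmd1, Psma7 and Psme4 as lower were lost, Psmd2, Psmd9, Psmg4 and Psme3 became higher, and no called member changed sign.

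Levels within the complex were uneven per length, counted over all transcripts of a gene. In WT vehicle libraries the 31 constitutive subunits had a median of 242 TPM, and ran from 110 TPM for Psma2 to 524 TPM for Psmb6, a 4.78-fold range. In KO vehicle libraries the range was 6.06-fold, from 94.2 TPM for Psma2 to 571 TPM for Psmb6. With torin1 the median was 191 TPM in WT and 188 TPM in KO. Over all transcripts Psma2 was lowest in every group, and the highest subunit with torin1 was Psma7 in WT and Psmd8 in KO. On protein-coding transcripts alone the lowest subunit was Psmd13 in WT vehicle libraries, at 64.3 TPM, and Psmc6 in KO vehicle libraries, at 71.6 TPM, and the ranges were 7.33-fold and 7.09-fold.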

How the data were processed

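Poly(A) RNA of 24 MEF libraries was sequenced in read pairs. The authors ran nf-core/rnaseq with STAR and Salmon on GRCm38 with UMI options, and deposited estimated counts and TPM per transcript for each library. Estimated counts were summed over the transcripts of each gene and rounded, giving 26900240 to 34192685 per library, which limits precision for low genes. Deposited TPM values were summed the same way for levels per length and were not tested. Genes passing filterByExpr (15828 of 55487) were scaled by TMM and fitted with edgeR 4.0.16 in R 4.3.3 (quasi-likelihood, 6 group means over all 24 libraries), with Benjamini-Hochberg adjustment over all tested genes and calls at an adjusted p under 0.05 and at least 1.2-fold. WT and KO drug comparisons share no library, while both drugs within a genotype share vehicle libraries. Replicates differed by more than sampling noise (chi-square per degree of freedom 3.52 to 26.5 over 36 pairs), so each counted as 1. The study removed a batch effect with limma, but the libraries carry a single batch label and no batch term was used. Named genes were the catalytic subunits, activators, chaperones, members called with MK-8722 or in a difference between genotypes, the 6 called members with the largest change in each direction for torin1 and genotype, and up to 4 called genes per list. Psma6, Psmc1, Psmc2, Psmc3, Psmc6, Psmd2 and Psmd4, the lowest and highest subunits per length, and members named for a lost or gained call or a library that stood apart were chosen after their values were seen. The members and lists were chosen with earlier results of these data known. The fit was tested on simulated data. Alternatives covered thresholds, scaling, filters, blocks, DESeq2 1.42.0, transcript length and leaving out each library.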

Additional observations from a re-analysis of the deposited data

Results flagged for a closer look

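In 10 of the 282 sets of 4 libraries examined, 1 per tested member and group, a library stood apart from the other 3 by Dixon's criterion, which chance gives in about 1 of 20 sets. The widest gap in CPM was in Psmd1, a base subunit, at 233.6 CPM in WT MK-8722 replicate 2 against 310.3 to 323.3 in the others. In WT vehicle, Psma3 was at 145 CPM in replicate 3 against 137 to 138.1, and Psme1 at 51.96 CPM in replicate 4 against 56.06 to 56.78. In WT torin1, Psmd11 was at 153.1 CPM in replicate 3 against 145.1 to 146.3, and Psmg3 at 19.13 CPM in replicate 2 against 16.9 to 17.22. In KO MK-8722, replicate 2 was low for Psma4 (133.4 CPM against 139.9 to 140.2) and Psmc1 (160.8 CPM against 165.4 to 166.2). In the same group replicate 4 was high for Psmb7 (179.8 CPM against 166.3 to 167.7) and low for Psmd9 (57.11 CPM against 58.34 to 58.48). Psmd10 was at 19.55 CPM in KO torin1 replicate 2 against 20.94 to 21.04.

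The drug response differed between genotypes, by edgeR's test of the difference in the fit without passage, in 3 members. With MK-8722, the KO response minus the WT response was 0.28 for Psmc5 and 0.35 for Psmg4 on the log2 scale. With torin1 it was -0.94 for Psme2b, a copy of Psme2 whose shared reads could be split between both genes. With passage as a block, Psmb8 and Psmb10 also differed for torin1. Psmg4 lost the call without any of WT vehicle replicates 2, 3 and 4, KO vehicle 1, 2 and 3, WT MK-8722 1, 3 and 4, KO MK-8722 1 and 2, WT torin1 2 or KO torin1 3. Its size ran from 0.31 to 0.43 over all 24 fits that left out a library. Psme2b lost the call without any of WT vehicle replicates 1, 2 and 3, KO vehicle 1, 2 and 4, WT torin1 1 and 2, KO torin1 1, 2 and 3 or KO MK-8722 1. Its size ran from -1.12 to -0.80 over all 24 such fits.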

How the results depend on the processing

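No called member changed sign under any alternative run, but some splits over many genes did. With library size alone, the share of called genes that were higher went from 55.5 to 45.1% for MK-8722 in KO and from 58.7 to 42.1% for the torin1 difference between genotypes, and the median of the members went from -0.06 to 0.08 for KO against WT and from 0.036 to -0.001 for the torin1 difference. Counts are of the tested members, 47 in the fit used above. With no filter Psmb11 was tested as well, and a minimum of 10 counts in every sample left out Psmb9. On the adjusted p alone, MK-8722 lowered 21 in WT, torin1 raised 2 in each genotype, 21 were lower in KO than WT, and the genotypes differed in 10 upward for MK-8722 and in 2 upward and 2 downward for torin1. At 1.5-fold, torin1 lowered 11 in WT and 7 in KO and raised 0 in WT, MK-8722 gave 0 in each direction in WT, 6 were higher and 1 lower in KO than WT, and 0 differed in response to MK-8722. With library size alone, torin1 raised 2 in WT and 1 in KO, 4 were lower in KO than WT, and 0 differed for MK-8722. DESeq2 size factors, DESeq2's Wald test and a minimum of 10 counts each gave 0 higher with MK-8722 in WT. With no filter, 0 were higher and 2 lower with MK-8722 in WT, 0 higher with torin1 in WT, and 0 differed for torin1. A test against a 1.2-fold change gave 0 for MK-8722 in WT in both directions, 0 higher with torin1 in WT and 0 differing for either drug. Fitting the compared libraries alone gave 0 higher with torin1 in WT and 1 differing for MK-8722. A length offset gave 0 differing for torin1. Protein-coding transcripts alone, an alternative chosen after seeing the data, gave 2 lower with MK-8722 in WT and 2 differing for torin1. Passage as a block gave 1 higher with torin1 in KO and 3 differing downward for torin1.

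Leaving out each library gave 0 to 1 higher and 1 to 2 lower with MK-8722 in WT, and 0 to 1 higher and 27 to 33 lower with torin1 in WT. It gave 31 to 34 lower with torin1 in KO, 9 to 12 higher and 8 to 12 lower in KO than WT, 0 to 3 differing upward for MK-8722, and 0 to 1 differing in each direction for torin1.

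Replicate numbers did not pair the samples: deviations of libraries with the same number correlated at -0.196 to 0.25 over 60 pairs, 5 of them over 0.1. With the replicate block, 1 member differed for MK-8722 (Psmg4 was lost) and 0 for torin1 (Psme2b was lost), and torin1 lowered 30 in WT and 32 in KO. For libraries of the same passage within a genotype the correlation was -0.011 to 0.367 over 24 pairs, 15 over 0.1.

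On protein-coding transcripts alone, also chosen after seeing the data, the Psmb8 share was 0.58% in WT MK-8722, 1.24% in WT torin1, 26.3% in KO vehicle, 23.9% in KO MK-8722 and 32.3% in KO torin1. The Psmb9 share was 0.0413% in WT vehicle, 1.4% in KO MK-8722 and 2.62% in KO torin1. The Psmb10 share was 2.81, 2.39 and 4.41% in WT and 11.4, 9.14 and 12.3% in KO, with vehicle, MK-8722 and torin1. The subunit range was 7.33, 7.1 and 8.26-fold in WT and 7.09, 7.31 and 9.75-fold in KO. With length-scaled counts the Psmb10 share was 11.58% in WT vehicle, 10.8% in WT MK-8722 and 23.19% in KO MK-8722. With CPM per effective length the subunit range in WT vehicle was 4.855-fold. Depth limits Psmb8, Psmb9 and Psme2b most in WT, and genotype cannot be told apart from passage range.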
